A study of Mus musculus with 6 samples.

Results

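Macrophage polarization genes were examined as 10 listed genes, chosen by symbol: Arg1, Nos2, Chil3, Retnla, Mgl2, Clec10a, Mrc1, Cd163, Folr2 and Il10. Of these, 9 were measured among the 17830 genes of the series, and Retnla was not analysed here. Bulk RNA-seq was available for 6 libraries of cells labelled as skull bone osteoblasts, taken from male mice at 6 months of age (6-MO). The 3 control libraries came from mOCN-Cre; Ai9 mice, and the 3 APPswe libraries came from TgAPPswemOCN-Cre; Ai9 mice, so that the Cre and the reporter were common to both groups. The mOCN-Cre allele places Cre at the C-terminus of the endogenous osteocalcin gene (Bglap), Ai9 turns on tdTomato wherever Cre has acted, and the APPswe mice also carry a human APP transgene with the Swedish mutations that is silent until Cre removes a stop cassette. Cells grew out of calvarial bone chips in culture, and tdTomato+ cells were purified by flow cytometry before RNA extraction. The sources used here do not say whether the libraries of a group came from separate animals, so the p-values measure the spread between these libraries, which may be technical.

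Macrophages change their expression programme with the signals they meet. Interferon-gamma and bacterial products induce the classical programme, which includes the nitric oxide synthase Nos2 and inflammatory cytokines, whereas interleukin-4 and interleukin-13 act through STAT6 to induce the alternative programme, of which Arg1, Chil3, Retnla, Mgl2, Clec10a and Mrc1 are the usual mouse markers. Arg1 and Nos2 use the same substrate, arginine, and turn it into ornithine or nitric oxide. Cd163 and Folr2 mark macrophages resident in tissues, Il10 is an anti-inflammatory cytokine, and in bone such macrophages lie beside osteoblasts while the same lineage gives rise to osteoclasts.

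Total counts were 17649704 to 18398392 per control library and 17263757 to 17555489 per APPswe library, so that 3 counts corresponded to 0.167 to 0.173 CPM (counts scaled to the library total). Among the marker lists summed here, that of the labelled cell type was not the highest. The 17 macrophage identity genes, all detected, summed to 20500 to 30595 FPKM (fragments scaled to transcript length and library total, a level per length) in control and 15866.5 to 17162 in APPswe. The 12 osteoblast genes summed to 1788 to 2126 and 1673 to 1817. Most of the macrophage sum was Lyz2 (lysozyme), at 11905 to 19518 FPKM in control and 9310 to 10058 in APPswe. In CPM the macrophage sums were 18889 to 25958 in control and 13102 to 14262 in APPswe. The osteoblast sums were 8665 to 11469 and 7926 to 8726 CPM. Such sums depend on the genes listed and are not shares of cells. Control replicate 2 stood apart, also in its library name, Ctrl-S, which carries an S where the names of the others carry an L. It held 2 counts of the 4 Y-linked genes against 2257 to 3406 in the other libraries, against the male label. Its median osteoblast gene was at 0.281 CPM against 12.95 to 17.5, although its osteoblast sum, 2126 FPKM, was the highest of all libraries. APPswe replicates 2 and 3 were closer to each other than any other pair of libraries, with a chi-square per degree of freedom of 1.57, where counting error alone gives 1 and the other pairs gave 5.94 to 105. They were kept as separate libraries. Results for the members are given with and without control replicate 2 where that changed them.

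Folr2 and Mrc1 carried most of the signal of the members, and Folr2 was the abundant member that fell in APPswe libraries. Arg1 rose from near the detection limit, and Cd163, also at a low level, fell. The start regions of Mrc1 and Folr2 are shown because these were the most abundant members and differed in their response. Mrc1, a mannose receptor (CD206) on chromosome 2, spans chr2:14229414-14332023 on the plus strand, and Folr2, folate receptor beta, spans chr7:101839988-101857190 on the minus strand (both GRCm38.p6). The sequences are the 250 bases before each RefSeq start, written along the strand of the gene. Capitals mark matches, on either strand, to GAGGAA (PU.1, the lineage factor of macrophages, which reads TTCCTC on the other strand) or TGANTCA (AP-1), and the letters TTCNNNNGAA (STAT6) were searched in the same way. The motifs do not overlap in these windows.
Mrc1 (chr2:14229164-14229413, plus strand): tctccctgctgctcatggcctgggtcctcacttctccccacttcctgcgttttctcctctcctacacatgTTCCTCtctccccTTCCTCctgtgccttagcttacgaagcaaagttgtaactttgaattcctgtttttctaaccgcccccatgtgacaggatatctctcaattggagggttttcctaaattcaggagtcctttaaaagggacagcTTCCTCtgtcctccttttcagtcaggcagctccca
Folr2, distal start (chr7:101857191-101857440, minus strand): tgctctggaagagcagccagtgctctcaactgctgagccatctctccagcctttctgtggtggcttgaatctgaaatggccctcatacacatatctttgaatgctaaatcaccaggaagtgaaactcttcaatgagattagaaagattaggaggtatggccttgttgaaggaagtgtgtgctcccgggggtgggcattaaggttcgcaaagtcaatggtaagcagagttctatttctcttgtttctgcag
Folr2, proximal start (chr7:101845332-101845581, minus strand): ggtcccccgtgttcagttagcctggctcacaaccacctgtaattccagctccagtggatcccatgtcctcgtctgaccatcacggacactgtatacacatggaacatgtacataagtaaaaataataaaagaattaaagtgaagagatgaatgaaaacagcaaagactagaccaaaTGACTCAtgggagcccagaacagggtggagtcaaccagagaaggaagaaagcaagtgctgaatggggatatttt

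The Mrc1 window held GAGGAA 3 times, all on the opposite strand, the proximal Folr2 window held TGANTCA 1 time, and the distal Folr2 window held none of the 3 motifs. Among 32851 RefSeq promoter windows of the same length, 23.3% held GAGGAA, 6.75% TGANTCA and 5.85% TTCNNNNGAA. These matches are descriptions of the letters only. Windows for Chil3, Cd163, Mgl2 and Retnla were also in the table used, and Arg1, Nos2, Clec10a and Il10 had no entry.

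Folr2 stood at 199, 262 and 201 CPM in control replicates 1 to 3 and at 60.0, 61.7 and 61.1 CPM in APPswe replicates 1 to 3. Each control library was thus above each APPswe library by a wide margin, and the APPswe libraries were nearly level. The means were 221 ± 35.5 in control and 60.9 ± 0.859 in APPswe (SD, n = 3 each), and the log2 fold change, APPswe minus control, was -1.86 with a standard error (SE) of 0.12 (edgeR adjusted p = 0.000514). A gene was called where the adjusted p did not exceed 0.05 and the log2 fold change reached 1 in either direction, and by this rule 7.34% of all 13484 genes tested were called, 3.6% lower and 3.74% higher in APPswe. The CPM of the groups did not overlap in 45% of the genes tested (APPswe higher in 22.8%, lower in 22.2%), and in Folr2, Arg1, Chil3 and Cd163 among the members. Folr2 was called lower with each of the 6 libraries left out in turn, with log2 fold changes of -1.93 to -1.71 and edgeR adjusted p from 9.19e-09 to 0.00881, and without control replicate 2 the value was -1.71. Because these are bulk libraries, fewer cells of a type and less RNA per cell cannot be told apart. Of the 50-base stretches of Folr2 transcripts, 52.6% also occur in the antisense gene Gm10602 (GENCODE vM21), and since the strand setting of the counting is not given in the sources used here, reads of the 2 genes cannot be told apart. Folr1, the neighbouring folate receptor 1140 bases away, was at 0.282 to 1.29 CPM in control and 0.562 to 0.729 in APPswe, far below Folr2.

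Mrc1 stood at 595, 380 and 564 CPM in control and at 464, 410 and 406 CPM in APPswe. The APPswe libraries lay between control replicate 2 and the other control libraries, so the groups overlapped. Their means were 513 ± 116 and 427 ± 32.8 (SD, n = 3 each), with a log2 fold change of -0.27 (SE 0.17, edgeR adjusted p = 0.307), which did not pass the test. Without control replicate 2 the log2 fold change was -0.44 (SE 0.07, edgeR adjusted p = 0.000508), past the adjusted p but short of the required fold.

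**Figure D1:**
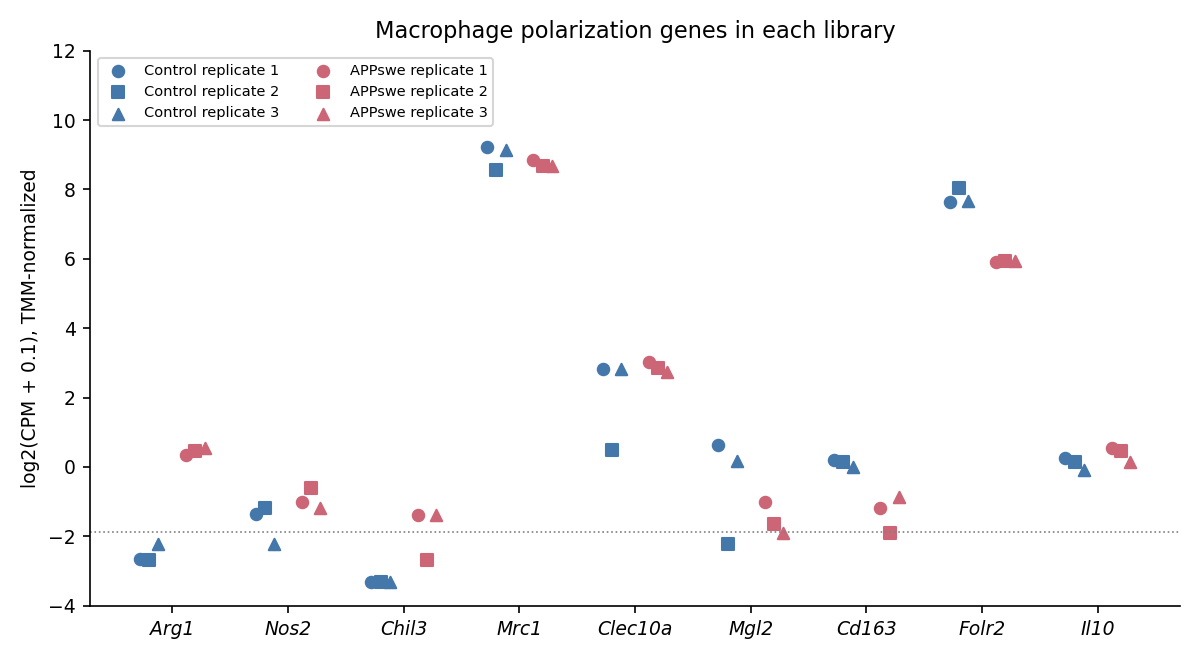
Level of the 9 measured members in each library, as log2(CPM + 0.1) after TMM normalization, with 1 point per library (blue control, red APPswe, marker shape by replicate) and a dotted line at 3 counts in control replicate 1. Folr2, Arg1, Chil3 and Cd163 show groups that do not overlap, and control replicate 2 lies below the other control libraries for Clec10a, Mgl2 and Mrc1.

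Per length, the order of Folr2 and Mrc1 was opposite in the 2 groups. Folr2 FPKM were 235, 309 and 237 in control and 75.4, 76.2 and 75.5 in APPswe, and Mrc1 FPKM were 115, 73.5 and 107 in control and 94.9, 82.8 and 81.6 in APPswe. The ratio of Folr2 to Mrc1 was 2.04, 4.20 and 2.20 in control and 0.794, 0.920 and 0.926 in APPswe. All control libraries held more Folr2 than Mrc1 and all APPswe libraries held less, and the groups did not overlap with or without control replicate 2. The ratio of their counts gave p = 0.1 in a two-sided exact permutation test, which is the smallest p that 3 against 3 libraries can give. By FPKM rank among all genes of a library, Folr2 went from 280 to 423 in control to 1282.5 to 1305.5 in APPswe, while Mrc1 ranked 838 to 1241 in control and 1032 to 1215 in APPswe.

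**Figure D2:**
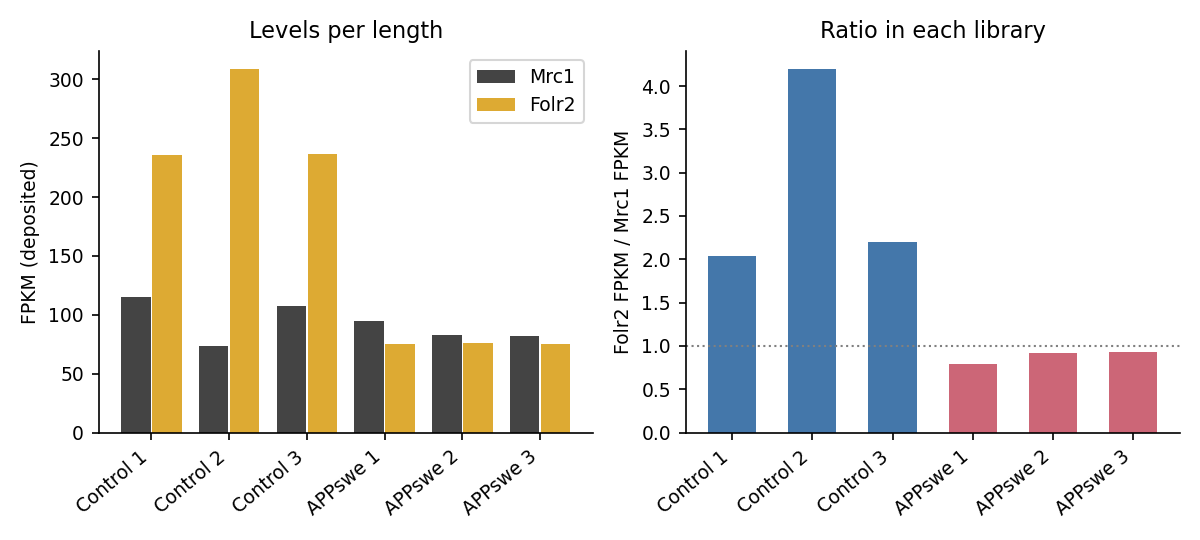
Left, deposited FPKM of Mrc1 (dark bars) and Folr2 (yellow bars) in each library, and right, the ratio of Folr2 to Mrc1 FPKM (blue control, red APPswe) with a dotted line at a ratio of 1. The ratio was 2.04 to 4.20 in control and 0.794 to 0.926 in APPswe.

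Cd163, the haemoglobin scavenger receptor (chr6:124304636-124330529), was counted 18, 18 and 16 times in control and 6, 3 and 8 times in APPswe. Every control library was above every APPswe library, at 0.985 ± 0.072 CPM against 0.318 ± 0.142 (SD, n = 3 each). The log2 fold change was -1.61 (SE 0.38, edgeR adjusted p = 0.0278). Cd163 passed the filter on low counts only through the control group, so a difference between the groups was a condition of its being tested. The call was kept without control replicate 2 (log2 fold change -1.59, edgeR adjusted p = 0.00760) and lost without any of the other libraries. The edgeR adjusted p was then 0.0763 without control replicate 1, 0.0634 without control replicate 3, and 0.107, 0.111 and 0.0704 without APPswe replicates 1, 2 and 3, at log2 fold changes of -1.94 to -1.31.

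Arg1, the arginase that makes ornithine (chr10:24915207-24927470), was counted 1, 1 and 2 times in control and 21, 23 and 24 times in APPswe. The control libraries were below 3 counts, and all APPswe libraries were well above, with no overlap. In CPM the means were 0.076 ± 0.032 and 1.27 ± 0.086 (SD, n = 3 each). Scaled for library size, the summed counts of 4 and 68 gave a ratio of 16.8 with a 95% exact interval of 6.25 to 63.3, which covers counting error only, and the log2 fold change was 3.95 (SE 0.38, edgeR adjusted p = 0.00147). The fitted fold change of so low a gene depends on the prior count. Arg1 entered the test only through the APPswe group, which made a difference a condition of the test, as for Cd163. Arg1 was called with each library left out, at log2 fold changes of 3.79 to 4.31 and edgeR adjusted p from 7.44e-05 to 0.0179, with the lowest value, 3.79, without control replicate 2. Per length it remained low also in APPswe, at 1.00, 1.07 and 1.13 FPKM, against 75.4 to 76.2 for Folr2 in the same libraries.

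Nos2, the classical counterpart of Arg1 (chr11:78920787-78960226), was near the detection limit in both groups. It was counted 5, 6 and 2 times in control and 7, 10 and 6 times in APPswe, and the groups touched at 6 counts. It did not pass the filter on low counts. The ratio of the summed counts, 13 and 23, was 1.74 (95% exact interval 0.847 to 3.75), and the exact permutation test gave p = 0.2 (two-sided). In the fit without that filter the edgeR adjusted p was 0.340. Per length, Arg1 over Nos2 was 0.625, 0.556 and 3 in control and 9.09, 7.13 and 11.3 in APPswe, ratios that rest in control on 1 or 2 Arg1 counts.

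Chil3, a chitinase-like protein (Ym1, chr3:106147554-106167564), had 0 counts in all control libraries and 5, 1 and 5 counts in APPswe. It was above 3 counts in 2 APPswe libraries, and the groups did not overlap. With 3 counts assumed over the control group, its summed counts were 3.61-fold higher in APPswe, a value that leaves out the counting error of the APPswe counts. It was too low to be tested, the exact permutation test gave its smallest possible p of 0.1 (two-sided), and without the filter the edgeR adjusted p was 0.0794. Of its 50-base stretches, 16.9% also occur in Chil4, a near-identical copy 33926 bases away, so that the counting could have split reads between them. Chil4 and the resistin-like gene Retnlb were not analysed here, and Retnlg, a relative of Retnla, had 1 count in all 6 libraries together, in APPswe replicate 2.

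The C-type lectins Mgl2 and Clec10a, which bind galactose-type sugars and are also found on dendritic cells, lie 29080 bases apart on chromosome 11 (chr11:70130125-70137542 and chr11:70166623-70170836). Mgl2 was counted 25, 2 and 18 times in control and 7, 4 and 3 times in APPswe. Control replicate 2 was the lowest library of all, and the other control libraries were the highest. With all libraries Mgl2 did not pass the filter, its summed counts of 45 and 14 gave a ratio of 0.307 (95% exact interval 0.155 to 0.569), and the exact permutation test gave p = 0.4 (two-sided). Without control replicate 2 it was tested and called lower, with a log2 fold change of -2.20 (SE 0.40, edgeR adjusted p = 0.00112), where 6.58% of all 13753 genes tested were called lower and 4.87% higher. It then passed the filter through the control group, so that a difference was again a condition of the test.

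Clec10a was counted 120, 23 and 123 times in control and 143, 128 and 117 times in APPswe. Apart from control replicate 2, which held far fewer counts, the libraries were alike in range. The CPM means were 5.06 ± 3.26 and 7.24 ± 0.728 (SD, n = 3 each), and the log2 fold change of 0.52 (SE 0.54, edgeR adjusted p = 0.524) was 0.07 (SE 0.13, edgeR adjusted p = 0.712) without control replicate 2. The ratio of Mgl2 to Clec10a FPKM was 0.202, 0.0882 and 0.153 in control and 0.0448, 0.0307 and 0.0296 in APPswe. It was lower in each APPswe library than in each control library, replicate 2 included, with p = 0.1 in the two-sided exact permutation test. These ratios rest on few Mgl2 counts, 2 in control replicate 2 and 7, 4 and 3 in APPswe. The genes share sequence, with 12.2% of the 50-base stretches of Mgl2 occurring in Clec10a. The 6 dendritic cell markers, of which 2 were at 0 in all libraries, summed to 69.4, 20.1 and 70.2 CPM in control and 54.8 to 62.1 in APPswe, low in control replicate 2 as were both lectins. Nearly all of that sum was Itgax, at mean CPM of 51.8 and 54.6, whereas the other marker tested, Zbtb46, was called higher (1.32, edgeR adjusted p = 0.0145), also without control replicate 2 (1.15), but not without APPswe replicate 1 (1.38), 2 (1.20) or 3 (1.37). Both were named after their values were seen, and the part of such cells in the lectin values was not tested.

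Il10 (chr1:131019845-131024970) was counted 19, 18 and 15 times in control and 24, 23 and 18 times in APPswe. The groups overlapped at 18 and 19 counts. The CPM means were 0.985 ± 0.127 and 1.21 ± 0.177 (SD, n = 3 each), with a log2 fold change of 0.30 (SE 0.25, edgeR adjusted p = 0.435) that did not pass the test, and 0.32 (SE 0.28, edgeR adjusted p = 0.375) without control replicate 2.

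**Figure D3:**
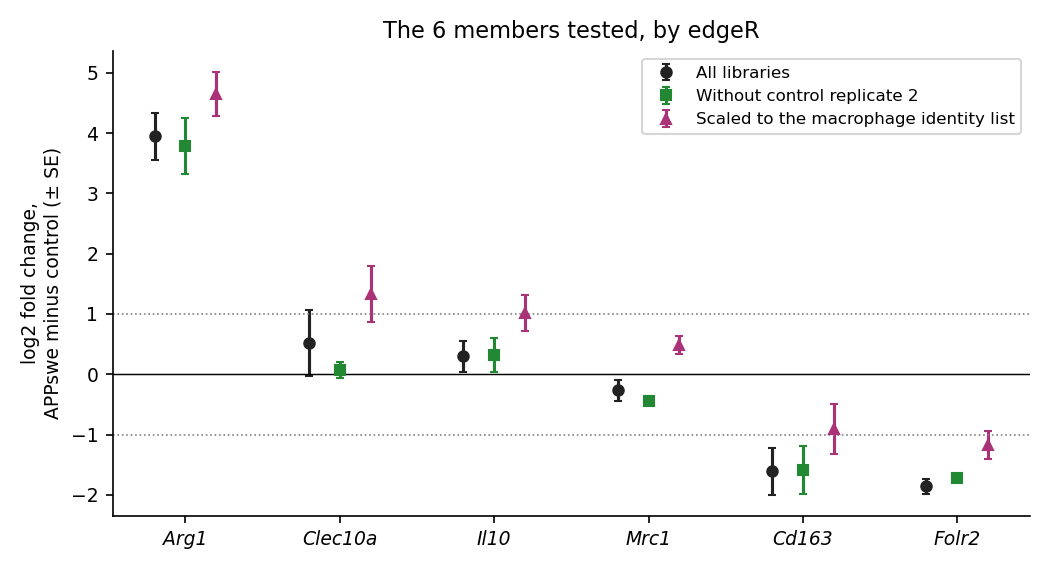
Log2 fold change, APPswe minus control, with SE, of the 6 members tested, in edgeR fits with all libraries (black circles), without control replicate 2 (green squares) and with library size set to the macrophage identity genes (purple triangles). Dotted lines mark -1 and 1. Arg1 was 3.95, 3.79 and 4.65 and Folr2 was -1.86, -1.71 and -1.17 in these fits, whereas Mrc1 changed sign, from -0.27 and -0.44 to 0.48.

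In mean FPKM the order in control was Folr2 (260 ± 42.0), Mrc1 (98.8 ± 22.2), Clec10a (3.96 ± 2.54), Il10 (0.913 ± 0.122), Mgl2 (0.673 ± 0.523), Cd163 (0.233 ± 0.021), Nos2 (0.067 ± 0.032), Arg1 (0.063 ± 0.023) and Chil3, listed at 0 (SD, n = 3 each). Il10 and Mgl2, Mgl2 and Cd163, and Nos2 and Arg1 did not differ beyond their spread. In APPswe the order was Mrc1 (86.4 ± 7.37), Folr2 (75.7 ± 0.401), Clec10a (5.99 ± 0.658), Il10 (1.19 ± 0.183), Arg1 (1.07 ± 0.065), Mgl2 (0.213 ± 0.076), Chil3 (0.163 ± 0.107), Nos2 (0.12 ± 0.026) and Cd163 (0.083 ± 0.040). There, Il10 and Arg1 did not differ beyond their spread, nor did Mgl2 and Chil3, Chil3 and Nos2, or Nos2 and Cd163. In control, Arg1 lay below Cd163 in each library, and in APPswe it lay above Cd163 in each.

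As a sum, the macrophage identity genes were themselves lower in APPswe, at 24255, 18889 and 25958 CPM in control and 13102, 14124 and 14262 in APPswe, and the groups did not overlap. Most of this sum was Lyz2, lysozyme, named after its values were seen. Lyz2 was at 14794, 9772 and 16084.5 CPM in control and 7148, 7840 and 7879 in APPswe. Scaling to the identity genes therefore mainly follows Lyz2. Of the 17 genes, Aif1 (log2 fold change 1.18) was called higher and Cd14 (-1.09) lower, and the median log2 fold change was -0.54, against -0.0033 over all genes tested. Both calls were lost without control replicate 2 (0.91 and -0.70) and without APPswe replicate 1 (1.19 and -1.07), 2 (1.15 and -1.04) or 3 (1.20 and -1.15). The median was -0.50 without control replicate 2, no identity gene was called higher, and Lyz2 was called lower (-1.02). The core markers Csf1r, the CSF1 receptor, and Adgre1 (F4/80) were at -0.07 (edgeR adjusted p = 0.832) and -0.54 (edgeR adjusted p = 0.0436), and neither was called. They were at 0.23 and -0.34 without control replicate 2, again not called. Per 1000 CPM of the identity genes, Folr2 was 8.22, 13.9 and 7.76 in control and 4.58, 4.37 and 4.29 in APPswe, and Mrc1 was 24.5, 20.1 and 21.7 in control and 35.4, 29.0 and 28.4 in APPswe. On this scale the Folr2 groups still did not overlap, with APPswe lower, whereas Mrc1 was higher in each APPswe library. The APPswe mean over the control mean was 0.443 for Folr2, 1.40 for Mrc1, 28.4 for Arg1, 2.54 for Clec10a, 2.01 for Il10, 0.526 for Cd163 and 2.73 for Nos2, with groups that did not overlap, and 0.550 for Mgl2, with groups that did. On this scale 71.8% of all genes tested were higher in APPswe without overlap and 2.6% were lower, so that the higher members followed most genes in direction. When edgeR was run with the identity genes as library size, the median over all genes tested shifted by 0.71, and 21.7% of all genes were called higher and 1.29% lower. In that fit Arg1 (4.65), Clec10a (1.33) and Il10 (1.01) were called higher and Folr2 lower. Cd163 (-0.91, edgeR adjusted p = 0.0858) and Mrc1 (0.48, edgeR adjusted p = 0.0225) were not called. Relative to that shift of 0.71, Arg1, Clec10a and Il10 were above the median gene. Mrc1 at 0.48 was below the median gene, as it was with TMM normalization.

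Signatures of other cells also differed between the groups. The 10 osteoclast genes summed to 296 to 433 CPM in control and 713 to 731 in APPswe with none at 0 in all libraries, and Acp5, the tartrate-resistant phosphatase of osteoclasts, was at 3.71 to 7.11 and 187 to 208 CPM. Acp5 and Ctsk accounted for most of that difference, with Ctsk at means of 181 CPM in control and 309 in APPswe. Of the 9 osteoclast genes tested, Acp5, Oscar and Ocstamp were called higher, while Nfatc1 (-0.03), Tnfrsf11a (-0.15) and Itgb3 (-0.79) were not called, and Itgb3 was called lower (-1.04) without control replicate 2. The 5 monocyte genes summed to 3.20 to 7.33 CPM in control and 12.9 to 14.9 in APPswe, the 6 skeletal muscle genes to 3.35 to 9.95 and 114 to 116, and the 5 endothelial genes to 26.8 to 196 and 9.47 to 11.1, again with none of these genes at 0 in all libraries. The calls were 1 higher of 3 monocyte genes tested (Ccr2), 5 higher of 5 muscle genes and 1 lower of 5 endothelial genes (Kdr), and without control replicate 2 they were 2 higher and 1 lower, 5 higher, and 5 lower. Ocstamp, Oscar and the muscle gene Myog entered the test mainly through their APPswe counts. The call of the muscle gene Myh3 was lost without APPswe replicate 1, 2 or 3 (edgeR adjusted p = 0.0580, 0.0581 and 0.0576). Apart from Acp5, these genes were named after their values were seen. The osteoblast marker Bglap was at 9.18, 0.056 and 11.5 CPM in control and 6.45, 7.13 and 8.93 in APPswe, low in control replicate 2 only. The part of these cells in the values of Arg1, Folr2 and the other members was not tested.

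To compare the alternative with the classical genes in each library, FPKM were summed. The 8 measured alternative members (all but Nos2) summed to 358, 385 and 352 in control and to 180, 167 and 165 in APPswe. These include Folr2, Cd163 and Il10, which are not among the interleukin-4 markers named above. Mrc1 and Folr2 made up 97.8%, 99.4% and 97.9% of this sum in control and 94.6%, 95.0% and 95.2% in APPswe. Folr2 was the larger part in control and Mrc1 in APPswe, and the difference in the sum between the groups mainly reads Folr2. Mrc1, the most abundant interleukin-4 marker, overlapped between the groups, at 115, 73.5 and 107 FPKM in control and 94.9, 82.8 and 81.6 in APPswe. Without these 2 genes the alternative sum was 7.86, 2.34 and 7.32 in control and 9.65, 8.45 and 8.01 in APPswe, higher in each APPswe library than in each control library, and of this remainder Clec10a gave the most in APPswe. Nos2 alone was at 0.08, 0.09 and 0.03 FPKM in control and 0.11, 0.15 and 0.10 in APPswe. Nos2 and 25 other classical activation genes together summed to 234, 293 and 226 FPKM in control and 205, 210 and 208 in APPswe. The alternative sum over this wider classical sum was 1.53, 1.31 and 1.55 in control and 0.880, 0.798 and 0.795 in APPswe. With Folr2 in it, the alternative sum was thus the larger in all control libraries and the smaller in all APPswe libraries. The difference between the group means of the log2 ratio was -0.83 and likewise mainly reads Folr2. In CPM, which is not per length, the ratio was 1.83, 0.941 and 1.78 in control and 1.30, 1.14 and 1.14 in APPswe, and control replicate 2 was then the lowest library. No test was run on these sums.

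**Figure D4:**
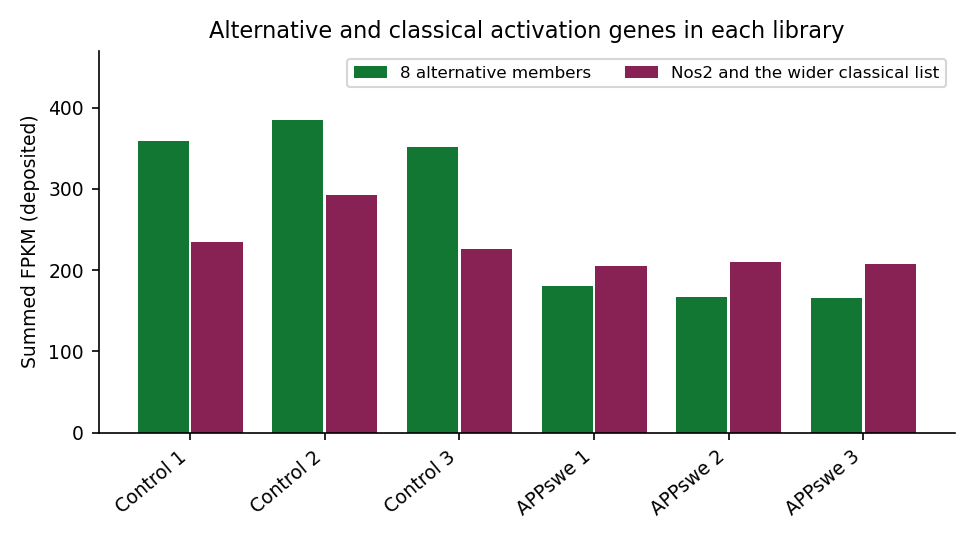
Summed deposited FPKM in each library of the 8 measured alternative members (green bars) and of Nos2 with 25 other classical activation genes (purple bars). The green bars include Folr2, a marker of resident macrophages. The green bar is the taller in the 3 control libraries (358, 385 and 352) and the shorter in the 3 APPswe libraries (180, 167 and 165).

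Other genes that interleukin-4 induces were listed as 14 genes, of which 7 were tested, 2 were called higher, none were called lower and the median log2 fold change was -0.28. Il1rn, the interleukin-1 receptor antagonist, was at 60.1, 14.6 and 57.5 CPM in control and 136, 136 and 138 in APPswe (log2 fold change 1.63, SE 0.47, edgeR adjusted p = 0.0485), and Egr2, a transcription factor of the alternative programme, was at 8.26, 4.72 and 8.64 CPM and 16.7, 16.5 and 15.6 (1.17, SE 0.23, edgeR adjusted p = 0.0148). Both were highest in the APPswe libraries, without overlap, and lowest in control replicate 2. Without control replicate 2, Il1rn was called at 1.22 (edgeR adjusted p = 1.49e-07) and Egr2 was at 0.95, short of the required fold. Leaving out any other library ended the call of Il1rn (1.63 to 1.92, highest edgeR adjusted p = 0.136), and leaving out APPswe replicate 1, 2 or 3 ended that of Egr2 (1.16, 1.16 and 1.20, edgeR adjusted p = 0.0628, 0.0665 and 0.0608).

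The inducing axis itself was measured by 14 of 17 listed genes, none of which was called (median log2 fold change -0.01). Il13 had 1, 1 and 0 counts in APPswe and 0 in control, and Il4 was not analysed here. The receptor gene Il4ra was at 276, 162 and 286 CPM in control and 272, 290 and 300 in APPswe, overlapping (0.25, SE 0.21, edgeR adjusted p = 0.424). Stat6, the transcription factor of this pathway, was at 201 to 221 CPM in control and 168 to 172 in APPswe, a log2 fold change of -0.31 (SE 0.07, edgeR adjusted p = 0.0250) that passed the adjusted p but not the fold. Without control replicate 2, 15 genes were tested and Il13ra2, a decoy receptor named after its values were seen, was called lower (-1.91, edgeR adjusted p = 0.000732), having passed the filter only through the control group.

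Arginine use was covered by 18 further genes, of which 14 were tested, none were called higher and 1 was called lower (median 0.02). Gch1, which makes the cofactor of nitric oxide synthases, was at 22.8, 19.4 and 23.0 CPM in control and 8.92, 11.1 and 11.1 in APPswe (-1.07, SE 0.14, edgeR adjusted p = 0.00353). It was lower in each APPswe library, and was at -0.97, short of the required fold, without APPswe replicate 1. Without control replicate 2, the nitric oxide synthases Nos1 (-2.37) and Nos3 (-3.39), named after their values were seen, were called lower beside Gch1 (-1.14). Both passed the filter there mainly through the control group, so that a difference was largely a condition of the test. Nos3 is the endothelial form, and the summed endothelial genes given above were likewise higher in control, but the part of such cells in the Nos3 values was not tested. Odc1, the ornithine decarboxylase that follows arginase, was at 76.2, 91.3 and 83.9 CPM in control and 118, 118 and 116 in APPswe (0.48, SE 0.08, edgeR adjusted p = 0.00980), without overlap but short of the required fold. Arg2, the mitochondrial arginase, was too low to be tested, with 5, 1 and 4 counts in control and 9, 8 and 13 in APPswe. It was above Arg1 in counts in control replicates 1 and 3, equal to it in replicate 2, and below it in all APPswe libraries, although counts of different genes are not per length.

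Genes of resident and scavenging macrophages besides Cd163 and Folr2 moved in both directions. Of 16 listed, 11 were tested, 1 was called higher and 3 were called lower, with a median log2 fold change of -0.32. Siglec1 (CD169), a sialic acid receptor of resident macrophages, was at 153, 211 and 160 CPM in control and 60.5, 65.2 and 61.7 in APPswe (-1.48, SE 0.13, edgeR adjusted p = 0.00114), a pattern like that of Folr2, with control replicate 2 the highest in both. Ccl8, a chemokine, was at 36.1, 8.71 and 32.2 CPM in control and 2.86, 2.40 and 3.26 in APPswe (-3.17, SE 0.54, edgeR adjusted p = 0.00877), and the ficolin Fcna, named after its values were seen, was at -1.36 (edgeR adjusted p = 0.00397). Marco, a scavenger receptor for bacteria and particles, went the other way, at 3.12, 0.562 and 2.82 CPM in control and 34.4, 31.4 and 34.0 in APPswe (3.94, SE 0.49, edgeR adjusted p = 0.00311). Siglec1, Fcna and Marco were called with each library left out, and the call of Ccl8 was lost without APPswe replicate 1 (-3.17, edgeR adjusted p = 0.0518) or 2 (-3.06, edgeR adjusted p = 0.0533). The list had, without control replicate 2, 2 called higher and 4 lower, with a median of -0.63, the added genes being the clotting factor subunit F13a1 (2.37) and the lipid transfer protein Pltp (-1.07), named after their values were seen.

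The 25 classical activation genes besides Nos2 also moved in both directions. Of the 20 tested, 2 were called higher and 3 lower, with a median log2 fold change of -0.60, which was -0.14 without control replicate 2, when 3 were called higher and 5 lower. Il6, an inflammatory cytokine, was at 1.62, 1.69 and 1.64 CPM in control and 7.23, 6.41 and 6.07 in APPswe (1.99, SE 0.17, edgeR adjusted p = 0.000991), and Cd40, a costimulatory receptor, was at 7.39, 4.89 and 6.72 CPM and 1.07, 1.62 and 1.85 (-2.06, SE 0.28, edgeR adjusted p = 0.00395). Both were called with each library left out. Tnf, tumour necrosis factor, was at 36.1, 21.4 and 45.0 CPM in control and 11.8, 12.98 and 14.2 in APPswe (-1.40, SE 0.26, edgeR adjusted p = 0.0131), without overlap. Its call was lost without APPswe replicate 1 (-1.33), 2 (-1.39) or 3 (-1.46), at edgeR adjusted p = 0.0671, 0.0650 and 0.0573. The other calls, named after their values were seen, were Il1b (1.81, edgeR adjusted p = 0.0342), which passed the filter on low counts only through the APPswe group, and the interferon-induced GTPase Gbp2 (-1.26, edgeR adjusted p = 0.0444). Of the genes called without control replicate 2, Ptgs2 (1.21), Saa3 (-1.32), Ccl5 (-1.22) and Acod1 (-1.07) were added in the same way. Among the 6 fits that each left out 1 library, Il1b was kept only without control replicate 2 (2.31), and Gbp2 only without control replicate 1 (-1.48) or 3 (-1.45).

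Of the signalling genes for the classical programme, 10 of 11 listed were tested, and Tlr4, the receptor for bacterial lipopolysaccharide, was the gene called, at 93.9 to 108 CPM in control and 47.7 to 55.0 in APPswe (-1.01, SE 0.09, edgeR adjusted p = 0.00116). It lay at the fold threshold and was at -0.98 without control replicate 1 or 2 and at -0.97 without APPswe replicate 3, not called. Ifng was not analysed here. Of 8 genes of interleukin-10 signalling, all tested, Prdm1, a transcriptional repressor, was called higher, at 2.60, 2.19 and 3.33 CPM in control and 11.2, 10.3 and 11.7 in APPswe (2.03, SE 0.19, edgeR adjusted p = 0.00122), and it was called with each library left out. The median of that list was 0.19.

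**Figure D5:**
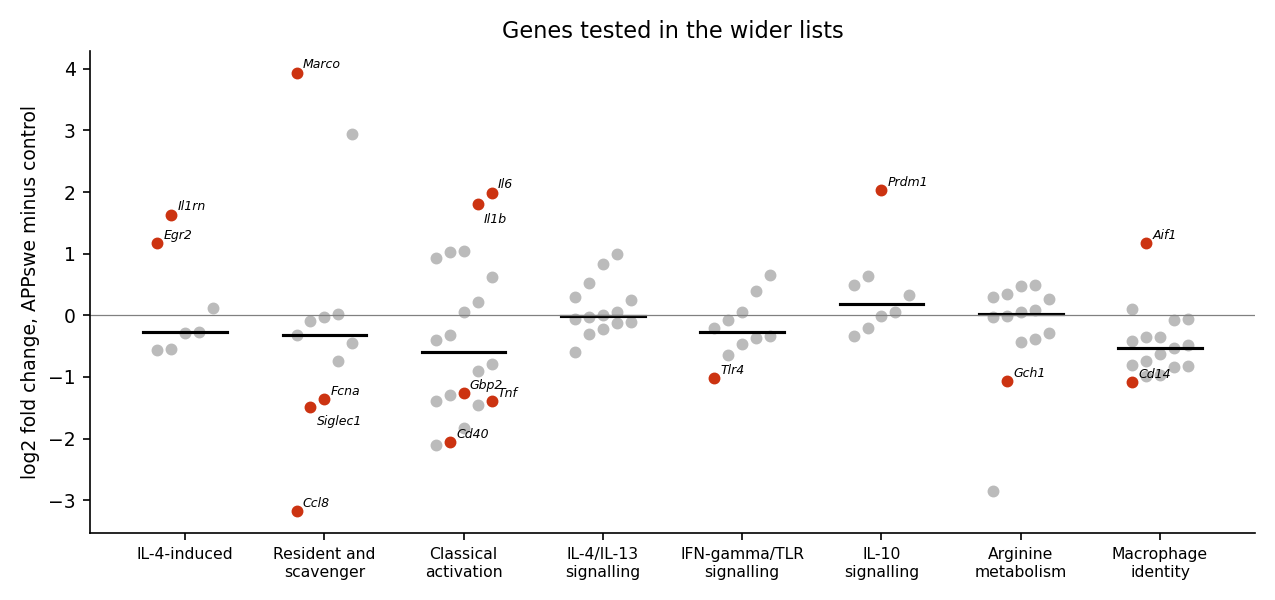
Log2 fold change, APPswe minus control, of each gene tested in 7 wider lists and in the macrophage identity list, with 1 point per gene, red where called, and a black line at the median of the list. With all libraries, the IL-4-induced calls are both above 0 (Il1rn and Egr2), and the resident, classical and identity lists hold calls on both sides, with medians of -0.32, -0.60 and -0.54. Neither identity call (Aif1, Cd14) remains without control replicate 2.

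As a description, the genes most like Arg1 over the 6 libraries, by Pearson's r of log2 CPM among genes that averaged 1 or more on that scale, were Bgn, Ptger2 and Actg2 (r = 0.999 each, n = 6), and those most like Mrc1 were Gm45988 (0.999), Fam3c (0.993) and Ints6l (0.991). For Folr2, compared in this way after its values were seen, they were Thbd, Gusb and Zfand2a (0.999 to 1.000). The 6 points of each correlation share the libraries and, for Arg1 and Folr2, fall into the 2 genotype groups.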

How the data were processed

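RNA was sequenced on the DNBseq platform from 3 control and 3 APPswe libraries, grouped by the genotype in their labels. The authors deposited counts of reads per gene without normalization and FPKM rounded to 2 decimals, with blank cells (in 397 or 716 genes, by library name style) read as 0. The deposited log2 fold changes, p-values and q-values hold the authors' own comparison and were not used. The submitters' processing notes name GRCm38; aligner and counter are not given in the sources used here. The counts were fitted with edgeR 4.0.16 under R 4.3.3 (TMM normalization, filterByExpr, which kept 13484 of 17830 genes, and glmQLFit with glmQLFTest on 6 libraries without covariate), with Benjamini-Hochberg adjustment over all genes tested. The study's thresholds were used (adjusted p 0.05, log2 fold change of 1 in either direction). SE is the log2 fold change over the square root of F. CPM are TMM-normalized. The procedure was tested on simulated data. Exact permutation tests were two-sided, and intervals and the floor of 3 counts cover counting error only. No 2 libraries agreed within counting error (lowest chi-square per degree of freedom 1.57, APPswe replicates 2 and 3, where counting error alone gives 1).

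The named genes were the 10 members, up to 3 called genes per wider list with the largest change (mean log2 CPM 0 or more, groups not overlapping), Arg2, Odc1, Il4, Il13, Il4ra, Stat6, Ifng, close copies of members, the 3 genes most like Arg1 and like Mrc1 (the highest in CPM), and the markers Adgre1, Csf1r, Acp5 and Bglap. Aif1, Cd14 and the genes so marked in the text were added after their values were seen. Members and lists were chosen with earlier results of these data known. Gene positions and promoter sequences are from RefSeq (GRCm38.p6), and shared 50-base stretches from GENCODE vM21 transcripts. Alternatives covered DESeq2 1.42.0 as test or for size factors, no scaling, macrophage identity genes as library size, 2 other filters, limma 3.58.1 on log2(FPKM + 1) or log2(FPKM + 0.1), a replicate block, library name style as covariate, adjusted p alone, CPM sums and each library left out.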

Additional observations from a re-analysis of the deposited data

How the results depend on the processing

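Folr2 was called lower under all 18 alternatives (log2 fold change -1.93 to -1.17). Mrc1 reversed to 0.48 with library size set to the macrophage identity genes, the setting that also gave 2921 genes higher and 174 lower, 3 members higher and 1 lower, and 27 called genes in the wider lists instead of 14. Main counts were 504 genes higher and 486 lower, with 1 member higher and 2 lower. With at least 10 counts in every library, 320 genes were higher, no member was higher and 1 was lower, as neither Arg1 nor Cd163 was then tested. Limma on log2(FPKM + 1) called 320 genes higher and 186 lower (305 and 170 without a filter), with 0 members higher and 1 lower, since Arg1 was at 0.96 (adjusted p = 0.000534), short of the required fold on that scale. DESeq2 (Cd163 adjusted p = 0.0744), limma on log2(FPKM + 0.1) (0.0687) and library name style as covariate (0.0617) left 1 member lower. The adjusted p alone gave 1414 genes higher, 1622 lower and 31 in the wider lists. CPM sums moved the alternative to classical difference from -0.83 to -0.29. Of the calls, 50.9% were higher in the main analysis, 94.4% with the macrophage scaling and 63.2% to 64.2% with limma.

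Leaving out each library in turn gave 281 to 670 genes higher, 230 to 905 lower, 1 to 3 members lower and 8 to 20 called genes in the wider lists. The cause of these changes was not tested. Same-numbered replicates correlated at r = 0.074, -0.036 and 0.158, which showed no pairing by number but cannot exclude one. Pairing by library name was not tested. The replicate block left 1 member lower (Cd163 adjusted p = 0.0774). Genes near 3 counts, Nos2, Chil3 and Arg1 in control, are limited by depth.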
